A study of Canis lupus familiaris with 45 samples.

Results

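The left ventricle of dogs paced for 1 week (the Week-1 group) was compared with that of unpaced dogs (Day-0). Arrays belonged to the comparison if their labels placed them in Week-1 or Day-0, which gave 18 of the 45 arrays of the series and 6 of its 15 dogs, with 3 dogs and 9 arrays in each group. All dogs were male and age-matched. The paced dogs carried a ventricular demand (VVI) pacemaker whose lead was fixed to the outer surface of the right ventricle, and pacing ran at 240 pulses per minute until the heart was taken. The Day-0 dogs were unpaced controls, and the labels do not say whether they had the implantation surgery, so an effect of surgery and an effect of pacing cannot be told apart here. A transmural piece of left ventricle, which spans the wall and holds all of its cell types, was taken from each dog, and RNA was isolated 3 times from it, each isolation going to its own array. No genotype or breed is given for the dogs.

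Rapid ventricular pacing is a long-used large-animal model of heart failure: the chamber dilates and its contraction weakens while the animal is paced. Heart muscle obtains most of its ATP by oxidising fatty acids, pyruvate and other fuels in mitochondria, and textbook accounts of the failing heart describe lower expression of that machinery. They also describe deposition of matrix by fibroblasts, remodelling of the cytoskeleton and an altered balance of protein folding in the endoplasmic reticulum.

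The unit of every value below is the log2 of the MAS5 signal of a probe set, averaged over the 3 arrays of a dog, and every difference is Week-1 minus Day-0 on that scale. Signals were compared between dogs for the same probe set and not between probe sets. Where a gene had several probe sets, the one with the highest mean signal stands for it unless another is stated. Linear models were fitted to all 15 dogs with limma. Its p-values were corrected for 14302 probe sets (Benjamini-Hochberg), with 0.05 as the threshold. A second, model-free description asked whether all 3 Week-1 dogs lay above, or all below, all 3 Day-0 dogs.

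The median signal per array was between 33.3 and 48.5 over the 45 arrays. The GAPDH 3-prime over 5-prime log2 ratio, a sign of RNA integrity, was between -0.131 and -0.049 in the Week-1 dogs and between -0.102 and -0.0255 in the Day-0 dogs (exact two-sided permutation p = 0.5, where 3 dogs against 3 cannot give less than 0.1). The same ratio of actin was between -3.04 and -2.04 at Week-1 and between -3.04 and -2.14 at Day-0, with a difference of 0.29 (exact two-sided permutation p = 0.5). In every dog the 3-prime signal of actin was far under its 5-prime signal, so this ratio is not read as RNA integrity. The tissue label was checked against 10 cardiomyocyte markers on the array, all of which passed the filter on dim probe sets. Their summed signal was between 76070 and 113060 in the Day-0 dogs and between 70848 and 104169 in the Week-1 dogs. Only 2 of 8 markers of skeletal muscle on the array passed that filter. NPPA, NPPB, MYH6 and PLN were not analysed here.

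One Week-1 dog needs separate treatment. Over 500 probe sets that told dogs apart, the lowest Pearson r between arrays of one dog was 0.674 in the 13 dogs not discussed here. In Week-1 dog 1, isolations 1 and 3 correlated at 0.672, but isolation 2 correlated with them at only -0.0819 and -0.0346. Isolation 2 correlated at 0.581 with isolation 1 of End-stage dog 1, and isolation 3 at 0.762 and 0.704 with the other two isolations of that dog, with which isolation 1 of Week-1 dog 1 correlated at 0.535 and 0.499. Isolation 1 of End-stage dog 1 correlated with its own other isolations at only 0.0176 and 0.0433. Over arrays of different dogs among the 13, the highest correlation was 0.381. The arrays labelled Week-1 dog 1 thus do not group as those of 1 dog, and their mean may not stand for 1 animal at 1 stage. Whether arrays of these 2 dogs were exchanged was not tested, and the labels were kept. These correlations run across probe sets chosen on the same arrays and are a description. Each difference of a named gene below includes Week-1 dog 1. The same difference without that dog follows it, either marked "without dog 1" or as a lone value in brackets; a second probe set with no such value is given with that dog only.

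After 1 week of pacing, 3 probe sets rose and 1 fell past the limma threshold, which is 0.028% of the 14302 tested. An unadjusted p under 0.05 was reached by 1287 probe sets, 558 higher and 729 lower. The only gene with a symbol among the 4 was SLC22A3, which encodes a membrane transporter of organic cations, including monoamines. Without Week-1 dog 1 no probe set passed in limma, where the smallest adjusted p was 0.0952 and 1129 probe sets had an unadjusted p under 0.05. The same count of 0 was found in limma without any other 1 of the 6 dogs, with 913 to 1256 probe sets at an unadjusted p under 0.05. With the 6 compared dogs fitted alone 7 probe sets passed in limma, but only 1 of the 4 was among them (1590146_at, adjusted p = 0.0412). SLC22A3 missed the threshold there (limma adjusted p = 0.0881), while TRIB1, CCN2 and ACTA1, described below, passed it (0.0112, 0.0349 and 0.0412). The values without Week-1 dog 1 are nevertheless close to those with it for the leading genes, as given below.

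SLC22A3 had log2 signals of 10.10, 10.04 and 10.42 in Day-0 dogs 1, 2 and 3. In Week-1 dogs 1, 2 and 3 its log2 signals were 11.02, 11.19 and 10.97. The groups did not overlap, and the separation also held at the level of single arrays: the 9 Day-0 arrays had linear signals between 1034 and 1387, and the 9 Week-1 arrays between 1801 and 2473. The difference was 0.87, or 1.83-fold (SE 0.13, n = 3 dogs in each group; limma adjusted p = 0.0404), and it was 0.89 without Week-1 dog 1. A second, dimmer probe set of SLC22A3 (1597514_at) gave 0.53 (SE 0.21), with overlapping dogs.

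The other probe sets past the threshold carry no gene symbol in the annotation used. Probe set 1590146_at had log2 signals of 7.50, 6.94 and 7.59 in the Day-0 dogs and 9.16, 10.01 and 9.21 in the Week-1 dogs, a rise of 2.12 (SE 0.31, n = 3 per group, limma adjusted p = 0.0404). Its lowest Week-1 dog lay well above its highest Day-0 dog. Probe set 1606168_at had 8.50, 8.37 and 8.45 at Day-0 and 9.18, 9.32 and 9.08 at Week-1, a rise of 0.75 (SE 0.12). Probe set 1595083_at had 11.60, 11.48 and 11.44 at Day-0 and 10.82, 10.62 and 10.68 at Week-1, so it fell by 0.80 on the log2 scale (SE 0.12). Without Week-1 dog 1 these 3 differences were 2.27, 0.76 and -0.85.

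Of 5278 genes, 414 had all Week-1 dogs above all Day-0 dogs (7.84%) and 581 had them below (11%). The median difference over all these genes was -0.02, with 2403 estimates above 0 and 2875 below. The members of each gene list below are read against these shares. Apart from SLC22A3, none of the genes described below passed the limma threshold in the fit of 15 dogs, so their values are given as measured differences and not as changes.

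**Figure D1:**
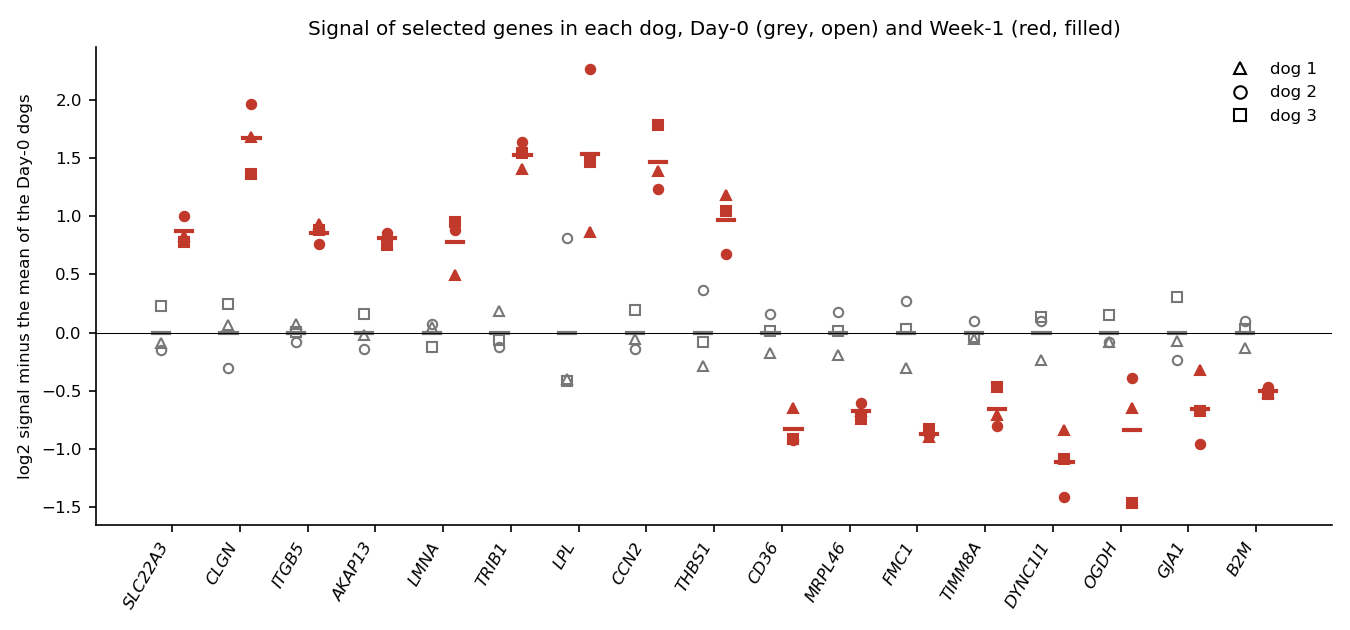
Log2 signal of 17 genes in each dog minus the mean of the Day-0 dogs, with Day-0 dogs as open grey and Week-1 dogs as filled red symbols, the dog number as the symbol shape and the group mean as a bar. In all 17 the groups do not overlap; SLC22A3 had a difference of 0.87, CLGN of 1.67 and CD36 of -0.83, and LPL and OGDH show the widest scatter between Week-1 dogs.

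The named genes with the smallest p-values among those higher at Week-1 were led by 3 with roles in protein folding, adhesion and signalling. CLGN, the lectin chaperone calmegin, had log2 signals of 5.60, 5.23 and 5.78 at Day-0 and 7.22, 7.51 and 6.90 at Week-1. Every Week-1 dog lay more than 1 unit above the highest Day-0 dog, and the difference was 1.67 (SE 0.27, limma adjusted p = 0.0512), or 3.18-fold, with the same 1.67 without Week-1 dog 1. ITGB5, the integrin beta subunit that pairs with the alpha V chain to bind vitronectin, had 10.52, 10.37 and 10.45 at Day-0. Its Week-1 values were 11.38, 11.21 and 11.33, all above the Day-0 dogs, a difference of 0.86 (SE 0.14, 0.82 without dog 1, limma adjusted p = 0.0512). AKAP13, a kinase anchor that also activates RhoA, had 9.10, 8.98 and 9.28 at Day-0 and 9.96, 9.97 and 9.87 at Week-1. That difference was 0.82 (SE 0.14, 0.80 without dog 1, limma adjusted p = 0.0537), and the 3 dimmer probe sets of AKAP13 lay higher by 0.39 to 0.62 with overlapping dogs.

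LMNA, which encodes the nuclear lamins A and C, had log2 signals of 7.72, 7.74 and 7.54 at Day-0 and 8.16, 8.54 and 8.62 at Week-1. Its lowest value at Week-1 was that of dog 1, and the difference was 0.78 with that dog and 0.92 without it (limma adjusted p = 0.0878 and 0.0952). TRIB1, a pseudokinase that brings proteins to a ubiquitin ligase, had 8.19, 7.87 and 7.93 at Day-0 and 9.40, 9.64 and 9.54 at Week-1, a difference of 1.53 (SE 0.30, 1.59 without dog 1). The narrow range of its 3 Week-1 dogs lay above every Day-0 dog. APOBEC2, a muscle-enriched member of the cytidine deaminase family, lay higher by 0.88 (0.96), the deubiquitinase STAMBPL1 by 0.73 (0.76), the LIM-domain adhesion protein TRIP6 by 0.88 (1.04) and the collagen VI and toxin receptor ANTXR2 by 0.66 (0.76). SH3RF2 and LOC478196 were also among the 12, by 1.02 (1.02) and 1.57 (1.57), but the other probe sets of either gene gave estimates of -0.16 to -0.31 with overlapping dogs. The value of SH3RF2 is not from its brightest probe set, which gave -0.16.

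Of the 12 genes lower at Week-1 with the smallest p-values, 4 encode proteins of mitochondrial translation, assembly, import and fission. The share of such genes among all genes tested was not counted, so the 4 are only listed. MRPL46, a protein of the large mitochondrial ribosomal subunit, had log2 signals of 8.67, 9.04 and 8.88 at Day-0 and 8.19, 8.26 and 8.13 at Week-1. All 3 Week-1 dogs lay close together and below Day-0, with a difference of -0.67 (SE 0.13, -0.67 without dog 1, limma adjusted p = 0.0878). FMC1, an assembly factor of the mitochondrial ATP synthase, had 9.20, 9.78 and 9.54 at Day-0 and 8.61, 8.63 and 8.67 at Week-1, a difference of -0.87 (SE 0.17, -0.85 without dog 1, limma adjusted p = 0.0937). TIMM8A, a small chaperone of the space between the mitochondrial membranes, had 9.54, 9.70 and 9.56 at Day-0 and 8.90, 8.80 and 9.13 at Week-1. It lay lower by a difference of -0.66 (-0.64), and its second probe set gave -0.56 with overlapping dogs. MFF, the receptor that brings the fission protein DRP1 to mitochondria, had 10.54, 10.51 and 10.51 at Day-0 and 10.04, 9.91 and 9.94 at Week-1 on the slightly dimmer of its probe sets. Its difference was -0.56 (SE 0.12, -0.59 without dog 1) there and -0.34 on the brighter one, without overlap on either.

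Others of the 12 have different roles. DYNC1I1, an intermediate chain of the dynein motor, had 7.31, 7.65 and 7.68 at Day-0 and 6.71, 6.14 and 6.46 at Week-1, a difference of -1.11 (SE 0.22) that was -1.25 without Week-1 dog 1. Its second probe set gave -1.37 (-1.67), and the groups overlapped on neither. KYAT1, which transaminates kynurenine and glutamine, differed by -1.27 (-1.46) on one probe set and -1.01 on the brighter one, again without overlap. ATP6V1G2, a subunit of the vacuolar proton pump, differed by -0.66 (-0.77) and the oxidoreductase PYROXD1 by -0.68 (-0.65). The J-domain protein DNAJC17 had linear signals of 36.5, 52.3 and 40.3 at Day-0 and 13, 16 and 12.6 at Week-1. PARP4 lay lower on 1 probe set, at 41.6, 45.5 and 36.9 against 17.4, 19.6 and 9.5, while its other 3 gave 0.13 to 0.64, so the sign depended on the probe set. The Week-1 signals of both lie below 22.75, the level under which probe sets were not tested, so no size is read from them. PCMTD2 differed by -0.76 (-0.86), and its dimmer probe sets gave -0.27 and 0.09 with overlapping dogs.

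**Figure D2:**
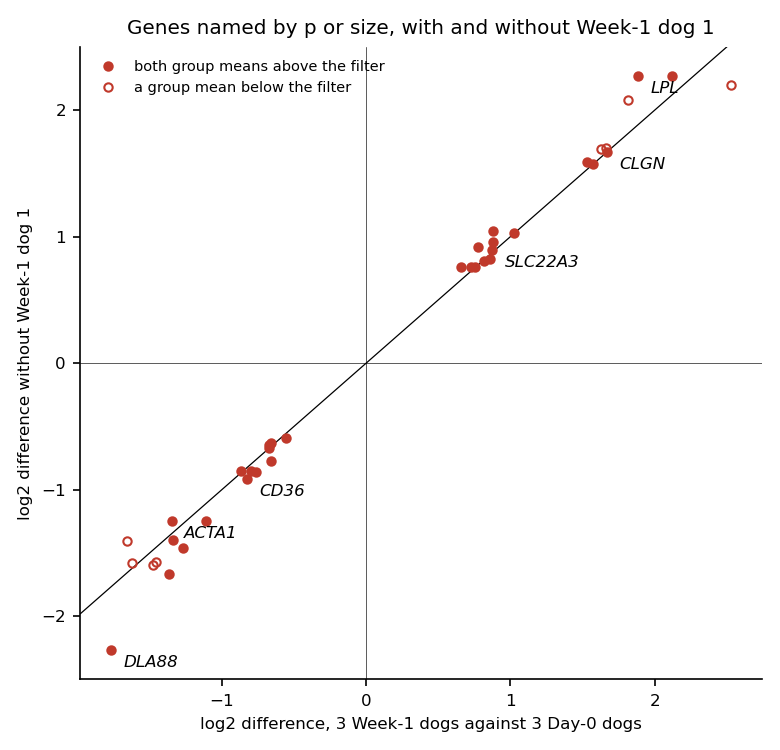
Log2 difference between Week-1 and Day-0 for the probe sets named by p-value or size, with 3 Week-1 dogs on the horizontal axis and without Week-1 dog 1 on the vertical axis; the line marks equality, and open symbols mark 8 probe sets with a group mean below the filter on dim probe sets. Points lie near the line; CLGN has 1.67 on both axes, and DLA88 lies furthest below it, at -1.77 with the dog and -2.27 without.

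The 12 genes higher and 12 lower with the smallest p-values all kept their direction without Week-1 dog 1. The ratio of the difference without that dog to the difference with it was between 0.958 and 1.19 for the genes higher at Week-1 and between 0.958 and 1.17 for those lower. Since the genes were chosen by their p-value with that dog included, these ratios describe them and test nothing.

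Among the genes named by size, several had a group below the filter's signal of 22.75, and for these no size or rank is read. CTH, cystathionine gamma-lyase, which makes cysteine, had linear signals of 23.9, 3.43 and 15.6 at Day-0 and 99.0, 60.1 and 41.2 at Week-1. SFRP4, a secreted antagonist of Wnt signalling, had 9.34, 28.3 and 19.8 at Day-0 and 41.9, 33.3 and 162 at Week-1, most in dog 3. LOC478000 had 32.4, 18.8 and 9.89 against 51.4, 59.9 and 58.1 on its dimmer probe set, and a difference of 0.04 with overlapping dogs on the brighter. In CHMP4C, an ESCRT-III subunit, the Week-1 dogs were the dim ones, at 16.5, 18.8 and 9.21 against 41.0, 31.8 and 45.6. ARHGEF2, an exchange factor for RhoA that binds microtubules, had 15.9, 33.7 and 21.2 against 160, 36.3 and 61.3 on its dimmer probe set, but -0.06 with overlapping dogs on the brighter.

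In the others named by size, both group means lay above that signal. LPL, the lipoprotein lipase that releases fatty acids at the capillary wall, had 8.52, 9.74 and 8.51 at Day-0 and 9.79, 11.20 and 10.39 at Week-1. Its groups barely separated, between Day-0 dog 2 and Week-1 dog 1, and the difference was 1.53 (SE 0.49), with 1.88 (2.27) on the second probe set and 1.87 on the first without Week-1 dog 1. DLA88, a dog MHC class I gene, differed by -1.77 (-2.27) on the dimmer of its probe sets against -0.33 (-0.34) on the brighter. KIAA1191 differed by -1.34 (-1.40) on its dimmest probe set and by -1.24 and -0.41 on the others, without overlap on any.

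Genes for protein folding and quality control in the endoplasmic reticulum lay mostly higher. Of 48 tested, 15 had all Week-1 dogs above Day-0 and 2 below, against 7.84% and 11% of all genes. Estimates were above 0 in 39 of 48, with a median of 0.13 (0.13 without Week-1 dog 1), where the median over all genes was -0.02. The list median per dog was 0.16, 0.17 and 0.15 in the Week-1 dogs relative to the Day-0 mean and 0.08, -0.06 and 0.00 in the Day-0 dogs, without overlap. None of the 48 passed the limma threshold.

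The list holds several protein disulfide isomerases, which form and shuffle disulfide bonds, and they did not share 1 direction. PDIA6 had log2 signals of 8.63, 8.31 and 8.31 at Day-0 and 8.94, 9.11 and 8.81 at Week-1, a difference of 0.54 (SE 0.13, 0.54 without dog 1). PDIA4 differed by 0.55 (SE 0.16, 0.64 without dog 1) and the related ERP29 by 0.54 (SE 0.13, 0.58 without dog 1), whereas PDIA5 ran the other way at -0.39 (SE 0.13, -0.44 without dog 1), with linear signals of 271, 256 and 237 at Day-0 and 206, 195 and 181 at Week-1. PDIA3 differed by 0.59 (SE 0.30, 0.45 without dog 1) with overlapping dogs. Of the lectin chaperones that hold glycoproteins during folding, calreticulin (CALR) had 8.03, 7.44 and 7.18 at Day-0 and 8.17, 8.41 and 8.61 at Week-1, a difference of 0.84 (SE 0.23, 0.96 without dog 1). Calnexin (CANX), the membrane-bound relative of CALR, differed by -0.18 (-0.20) on its brightest probe set and -0.56 on the other, lower in every Week-1 dog on both. Thus the 3 related lectin chaperones did not share 1 direction.

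HSP90B1, the endoplasmic reticulum form of HSP90, had 10.56, 10.35 and 10.65 at Day-0 and 11.02, 11.50 and 11.06 at Week-1, a difference of 0.67 (SE 0.22, 0.76 without dog 1). XBP1, the transcription factor that is spliced on activation of the unfolded protein response, differed by 0.50 (SE 0.16, 0.61 without dog 1), and these arrays do not separate its spliced form. SDF2L1, which works with the DNAJ co-chaperones of that compartment and is 1 of the 15, had linear signals of 24.6, 8.31 and 15.3 at Day-0, with a mean below the filter's 22.75, and 43.8, 38.7 and 58.1 at Week-1, so no size is read from it. RPN2 and STT3A, subunits of the oligosaccharyltransferase that attaches glycans, differed by 0.39 (0.42) and 0.35 (0.34), and 5 of the 6 probe sets of RPN2 separated the groups. HSPA5 (BiP), the HSP70 chaperone of the compartment, showed overlapping dogs and a difference of 0.08 (SE 0.26, 0.05 without dog 1), with an estimate below 0 under some alternatives.

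**Figure D3:**
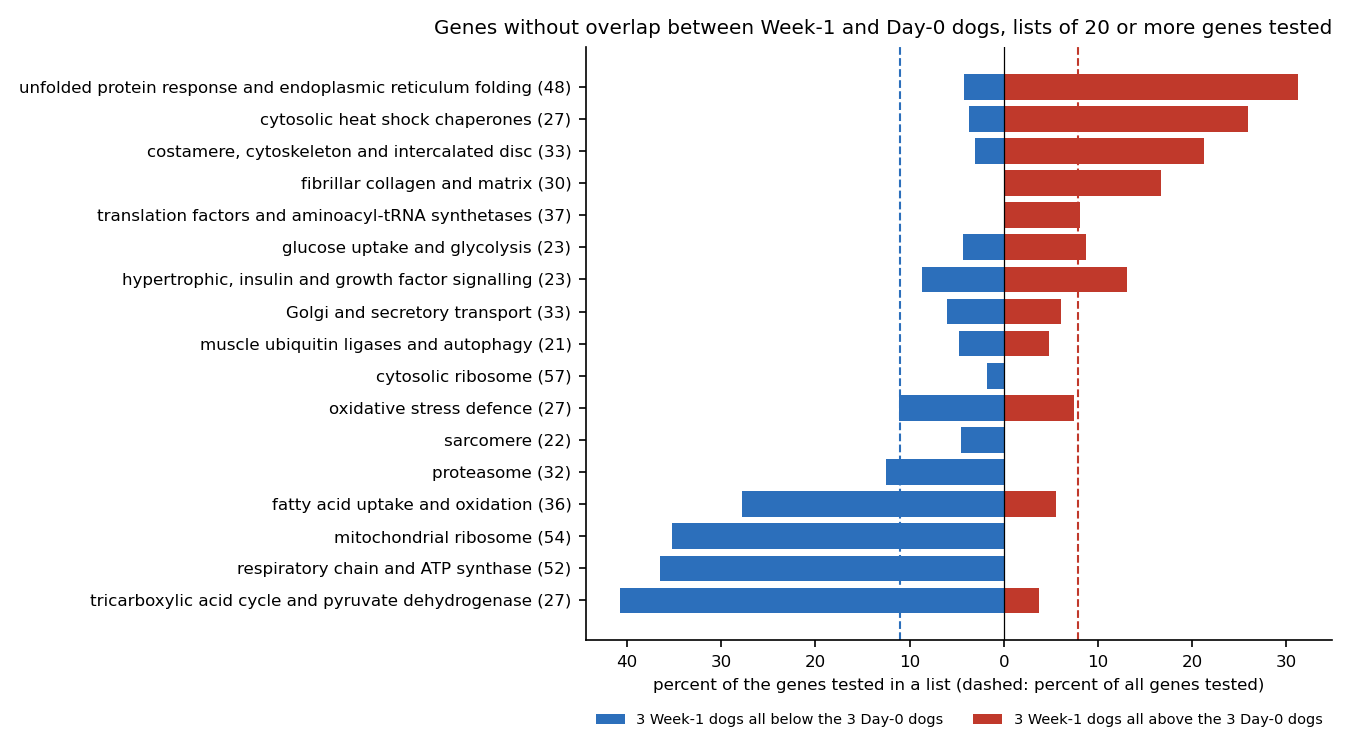
Percent of tested genes in each list of at least 20 tested genes whose 3 Week-1 dogs all lay above (red, right) or all below (blue, left) the 3 Day-0 dogs, with the number tested in brackets; dashed lines mark 7.84% and 11%, the shares over all 5278 genes. Lists of endoplasmic reticulum folding and heat shock chaperones extend furthest right, and those of mitochondrial metabolism and translation furthest left.

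Cytosolic heat shock chaperones and their regulators had 7 of 27 genes above and 1 below (25.9% and 3.70%, against 7.84% and 11% of all genes). Their median was only 0.05 (0.11 without Week-1 dog 1). HSF1, the transcription factor of the heat shock response, had 8.66, 8.77 and 8.81 at Day-0 and 9.13, 9.29 and 9.04 at Week-1, a difference of 0.40 (SE 0.12, 0.41 without dog 1). DNAJB4 differed by 0.60 (0.55), HSP90AA1 by 0.37 (0.48) and HSPH1 by 0.33 (0.40), and the chaperonin subunits CCT4 and CCT8 by 0.16 each (0.17 and 0.13). The dimmer probe set of CCT8 gave -0.02 with overlapping dogs. The list also holds mitochondrial chaperones, and these went both ways: HSPE1, the small subunit of the mitochondrial chaperonin, differed by 0.16 (SE 0.14, 0.19 without dog 1), above Day-0 in every dog, and the mitochondrial HSP70, HSPA9, by -0.24 (SE 0.13, -0.29 without dog 1), the 1 gene below.

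Costamere, cytoskeleton and intercalated disc genes tie the contractile apparatus to the membrane, the matrix and neighbouring cells. Of 33 tested, 7 lay above and 1 below (21.2% and 3.03%, against 7.84% and 11% of all genes). Their median was 0.16 (0.12 without Week-1 dog 1). Of the 7, 4 were tubulins, the subunits of microtubules. TUBB had log2 signals of 9.46, 9.38 and 9.27 at Day-0 and 9.72, 10.71 and 10.19 at Week-1, a difference of 0.84 (SE 0.20) that was 1.08 without Week-1 dog 1, the lowest of the 3. TUBB6 differed by 0.87 (0.93), TUBA1C by 0.81 (1.04) and TUBB2A by 0.51 (0.56), and near-identical tubulin genes may share these signals. Besides ITGB5 and LMNA, integrin-linked kinase (ILK), a scaffold at integrin adhesions, differed by 0.53 (SE 0.15, 0.52 without dog 1), with -0.02 on its second probe set. The 1 gene below without overlap was GJA1, connexin 43 of the gap junctions between myocytes. It had 9.01, 8.85 and 9.39 at Day-0 and 8.76, 8.12 and 8.41 at Week-1, a difference of -0.65 (SE 0.44, -0.82 without dog 1). Of the 33 genes, 12 had estimates below 0, among them ANKRD1, which is described with the sarcomere genes.

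Subunits of the respiratory chain and ATP synthase lay lower almost without exception in sign. Of 52 tested, 51 had estimates below 0, 19 had all Week-1 dogs below Day-0 and 0 had them above, against 11% and 7.84% of all genes. The median was -0.26, and -0.20 without Week-1 dog 1. Per dog, the list median relative to the Day-0 mean was -0.42, -0.14 and -0.25 at Week-1 and -0.19, 0.10 and 0.10 at Day-0, so Day-0 dog 1 lay below Week-1 dog 2. The cardiomyocyte markers had the same 2 dogs numbered 1 lowest, at -0.47 in Week-1 and -0.37 in Day-0, against 0.09 and -0.18 and against 0.20 and 0.18 in the others. All 10 of those markers had negative estimates, with a median of -0.19 that was -0.05 without Week-1 dog 1. In these bulk samples fewer cells of a type and less RNA per cell cannot be told apart, and the part of the cardiomyocyte marker level in the mitochondrial results was not tested.

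NDUFV2, a complex I subunit that carries an iron-sulfur cluster, had log2 signals of 11.95, 12.35 and 12.21 at Day-0 and 11.52, 11.73 and 11.67 at Week-1, a difference of -0.53 (SE 0.14, -0.47 without dog 1). NDUFA9 differed by -0.55 (-0.61) and NDUFAB1, the mitochondrial acyl carrier protein, by -0.44 (-0.38), and the core subunit NDUFS3 by -0.38 (-0.32). From complex II, SDHD differed by -0.29 (-0.26). From complex III, CYC1 differed by -0.36 (-0.28) and UQCRC1 by -0.35 (-0.29). Separation between the dogs was therefore seen in complexes I, II and III, and cytochrome c (CYCS), which carries electrons onward from complex III, differed by -0.33 (-0.28). The limma adjusted p-values of these genes were 0.254 to 0.518.

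Enzymes of the tricarboxylic acid cycle and the pyruvate dehydrogenase complex had 11 of 27 genes below and 1 above. These are 40.7% and 3.70%, against 11% and 7.84% of all genes, and the median was -0.27 (-0.22 without Week-1 dog 1). Genes of complex II, SDHD among them, are in this list and in that of the respiratory chain, so the lists are not separate. SUCLA2, the ADP-forming subunit of succinyl-CoA synthetase, had 10.08, 10.13 and 10.15 at Day-0 and 9.57, 9.58 and 9.42 at Week-1, a difference of -0.60 (SE 0.19, -0.62 without dog 1). The 1 gene above was SUCLG2, which makes the alternative, GDP-forming enzyme, at 9.38, 9.51 and 9.27 against 9.68, 9.73 and 9.69, a difference of 0.31 (SE 0.12, 0.32 without dog 1). The 2 alternative subunits of one enzyme thus lay on opposite sides of Day-0, each without overlap between the groups. PDHB, the E1 beta subunit of pyruvate dehydrogenase, differed by -0.35 (-0.37) and its inhibitory kinase PDK2 by -0.38 (-0.33). IDH3A differed by -0.43 (-0.40) and IDH3B by -0.31 (-0.25). OGDH had the widest spread, with 8.20, 8.46 and 7.38 at Week-1 and a difference of -0.83 (SE 0.56, -0.93 without dog 1).

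Fatty acid uptake and oxidation genes had 10 of 36 below and 2 above (27.8% and 5.56%, against 11% and 7.84% of all genes). Their median was -0.22 (-0.18 without Week-1 dog 1). CD36, the fatty acid translocase of the cell surface, had log2 signals of 9.45, 9.79 and 9.65 at Day-0 and 8.98, 8.71 and 8.71 at Week-1. Every Week-1 dog lay below Day-0, by -0.83 on average (SE 0.17, limma adjusted p = 0.1), and by -0.92 without Week-1 dog 1. Inside the cell, ACSL1, which activates long-chain fatty acids to acyl-CoA, had linear signals of 2741, 2951 and 3070 at Day-0 and 2053, 1973 and 2012 at Week-1, a log2 difference of -0.54 (SE 0.16, -0.55 without dog 1), and its other 3 probe sets gave -0.63 to -0.94. HADHA and HADHB, the subunits of the mitochondrial trifunctional protein, differed by -0.52 (-0.49) and -0.49 (-0.36), MLYCD, which removes the inhibitor malonyl-CoA, by -0.52 (-0.59), and ETFDH, which passes electrons from oxidation to ubiquinone, by -0.46 (-0.57).

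The 2 genes of that list that lay higher were LPL, described above, and PPARA, the nuclear receptor that activates fatty acid oxidation genes. PPARA had 8.21, 8.09 and 8.23 at Day-0 and 8.63, 8.36 and 8.59 at Week-1, a difference of 0.35 (SE 0.18, 0.30 without dog 1), while its 3 dimmer probe sets gave estimates of -0.20 to 0.36 with overlapping dogs. The coactivators PPARGC1A and PPARGC1B differed by -0.27 (-0.36) and -0.49 (-0.60), the first with overlapping dogs.

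Proteins of the mitochondrial ribosome had 19 of 54 genes below and 0 above (35.2% and 0%, against 11% and 7.84% of all genes). Estimates were below 0 in 46, with a median of -0.16 (-0.14 without Week-1 dog 1). The list median was -0.15, -0.13 and -0.16 in the Week-1 dogs and -0.05, 0.00 and 0.04 in the Day-0 dogs, without overlap. Besides MRPL46, the values of MRPL38 were 8.06, 8.18 and 8.35 at Day-0 and 7.56, 7.50 and 7.82 at Week-1, a difference of -0.57 (SE 0.14, -0.54 without dog 1). MRPL35 differed by -0.50 (-0.38), MRPL1 by -0.48 (-0.59) and MRPL58 by -0.47 (-0.40). Proteins of the cytosolic ribosome, the general translation machinery, had 1 of 57 below and 0 above (1.75% and 0%, against the same shares). Their median was -0.01, and 0.09 without Week-1 dog 1.

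**Figure D4:**
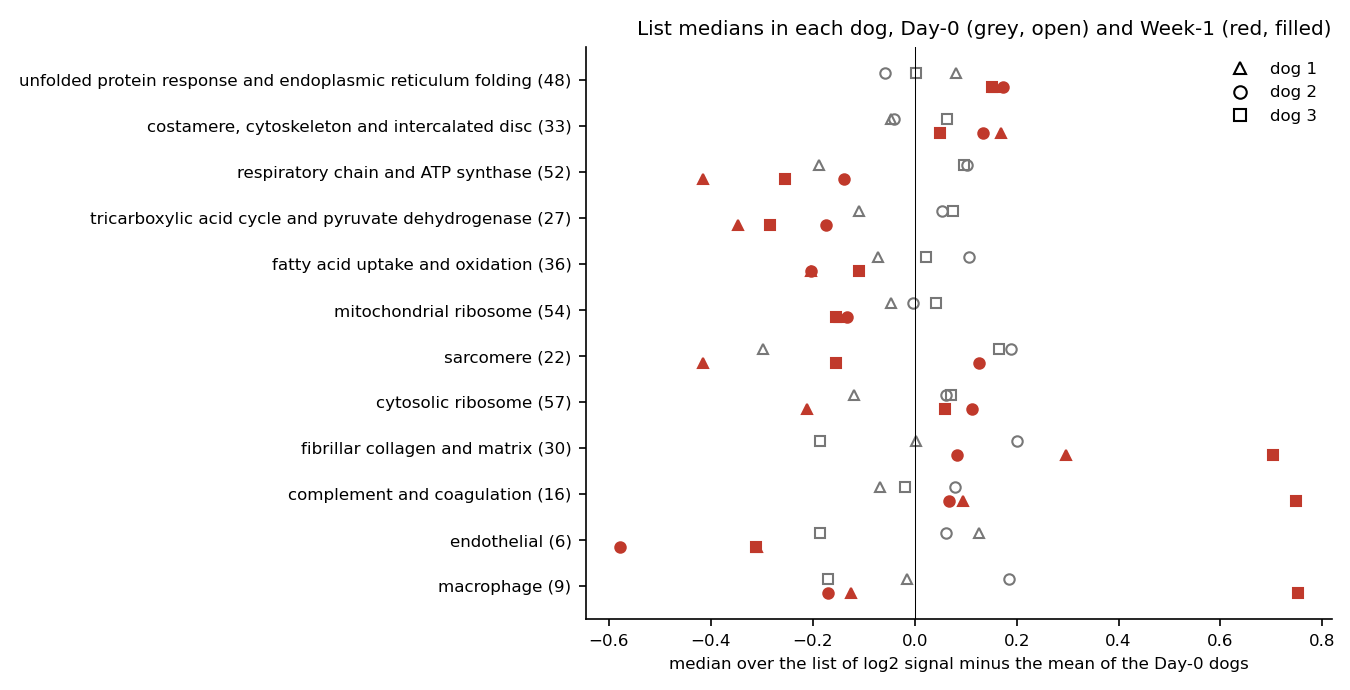
Median over each list of log2 signal minus the mean of the Day-0 dogs, for each of the 3 Day-0 dogs (open grey) and 3 Week-1 dogs (filled red), with the dog number as the symbol shape and the number of tested genes in brackets. The folding, mitochondrial ribosome, tricarboxylic acid cycle, fatty acid and endothelial lists separate the groups, while matrix, complement and macrophage lists are highest in Week-1 dog 3, at 0.70, 0.75 and 0.75.

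The median difference of matrix genes was 0.42 (0.43 without Week-1 dog 1), with list medians of 0.30, 0.08 and 0.70 in Week-1 dogs 1, 2 and 3 that overlapped the Day-0 range of -0.19 to 0.20. Of 30 tested, 25 had estimates above 0, 5 had all Week-1 dogs above Day-0 and 0 had them below. The last 2 are shares of 16.7% and 0%, against 7.84% and 11% of all genes. CCN2, connective tissue growth factor, had log2 signals of 9.12, 9.03 and 9.37 at Day-0 and 10.57, 10.41 and 10.96 at Week-1, a difference of 1.47 (SE 0.51, 1.51 without dog 1). Thrombospondin 1 (THBS1) had 8.14, 8.79 and 8.34 against 9.61, 9.10 and 9.47, a difference of 0.97 (SE 0.23, 0.86 without dog 1). Both genes separated the groups in all dogs, as did LOXL2, which cross-links collagen, with a difference of 0.64 (SE 0.17, 0.55 without dog 1), and the matrix proteins MFAP4 and FBLN1, with 0.70 (0.75) and 0.58 (0.72).

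The fibrillar collagens themselves overlapped between the groups. COL1A1 had 8.26, 9.20 and 7.55 at Day-0 and 8.99, 8.65 and 10.34 at Week-1, a difference of 0.99 (SE 0.53, 1.16 without dog 1), and COL3A1 differed by 0.48 (SE 0.49, 0.72 without dog 1). Fibronectin (FN1) had 9.64, 9.19 and 11.07 at Week-1, a difference of 0.80 (SE 0.38, 0.96 without dog 1). Week-1 dog 3 was the highest of the 6 dogs for all 3 genes. Markers of fibroblasts, macrophages and adipocytes were highest in the same dog. The 5 tested fibroblast markers had list medians of 0.29, 0.21 and 1.24 in Week-1 dogs 1, 2 and 3, and their summed signal was 6253 to 10740 at Week-1 and 5898 to 8838 at Day-0. The 9 macrophage markers had -0.13, -0.17 and 0.75, with a summed signal of 713 to 1425 against 790 to 1043. The 3 tested adipocyte markers had -0.13, 0.15 and 2.04, with a summed signal of 190 to 768 against 149 to 277. Of these 3 markers 2 had estimates above 0 (ADIPOQ and CIDEA) and 1 below (LIPE), all with overlapping dogs. The dimmer probe set of ADIPOQ gave 0.07. The 1 tested platelet marker was also highest in Week-1 dog 3, with a signal of 33 to 41 at Week-1 and 32 to 37 at Day-0. So were the summed signals of smooth muscle and pericyte markers (6044 to 8356 against 6455 to 8310) and skeletal muscle markers (76 to 124 against 105 to 117). By list median, both of these muscle lists were highest in a Day-0 dog. Complement and coagulation genes had 0.10, 0.07 and 0.75, and 2 of 16 lay above without overlap (12.5%, against 7.84% of all genes). Other lists did not follow that dog: the 5 tested T cell and NK cell markers had estimates below 0 in 5 of 5, list medians of -0.20, -0.29 and -0.38 at Week-1 against -0.03, 0.25 and -0.06 at Day-0, and a summed signal of 218 to 287 against 257 to 359, with Week-1 dog 3 lowest. The 1 tested mesothelial marker was also lowest in that dog. No marker in these lists had a signal of 0. The part of these cells in the matrix and LPL results was not tested.

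Endothelial markers had estimates below 0 in 6 of 6, with a median of -0.37 (-0.40 without Week-1 dog 1). Of the 6, 3 lay below without overlap (50%, against 11% of all genes), too few genes for a share to be read. The angiopoietin receptor TEK had 7.22, 7.02 and 6.58 at Day-0 and 6.54, 6.33 and 6.49 at Week-1, a difference of -0.49 (SE 0.21, -0.53 without dog 1), and the related receptor TIE1 differed by -0.40 (-0.47) and the water channel AQP1 by -0.33 (-0.33). The list median was -0.31, -0.58 and -0.31 in the Week-1 dogs and 0.13, 0.06 and -0.19 in the Day-0 dogs. The summed signal of the 6 markers was 4842 to 5400 against 5648 to 6811, without overlap. VEGFA, the principal growth factor for endothelial cells, had 8.44, 8.32 and 8.59 at Day-0 and 7.80, 8.11 and 7.50 at Week-1, a difference of -0.65 (SE 0.20, -0.65 without dog 1), with -0.77 and overlapping dogs on its second probe set.

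Calcium handling genes had 2 of 17 above and 3 below (11.8% and 17.6%, against 7.84% and 11% of all genes). With so few genes the members are only listed. RYR2, the release channel of the sarcoplasmic reticulum, had 11.15, 11.30 and 11.55 at Day-0 and 11.06, 10.94 and 11.03 at Week-1, a difference of -0.32 (SE 0.14, -0.35 without dog 1), and S100A1, which binds it, differed by -0.49 (SE 0.15, -0.43 without dog 1). CALM3, a calmodulin gene, differed by 0.50 (SE 0.14, 0.61 without dog 1) and lay higher on all 3 probe sets. ATP2A2, the sarcoplasmic reticulum calcium pump, had 12.54, 13.12 and 13.13 at Day-0 and 12.45, 12.96 and 12.81 at Week-1. Its groups overlapped, and the difference of -0.19 (SE 0.20) was -0.05 without Week-1 dog 1. All 9 tested probe sets of ATP2A2 had negative estimates, and 2 of them, at -0.42 and -0.20, lay below Day-0 in every Week-1 dog.

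Among the 13 tested channels and pumps 1 lay above and 3 below (7.69% and 23.1%, against 7.84% and 11% of all genes). KCNJ8, the pore of an ATP-sensitive potassium channel that vascular cells also express, had 9.13, 9.19 and 9.35 at Day-0 and 8.66, 8.39 and 8.91 at Week-1, a difference of -0.57 (SE 0.23, -0.57 without dog 1). KCNA5 differed by -0.41 (-0.45) and KCNH2 by -0.17 (-0.21), and the sodium pump subunit ATP1B3 by 0.17 (0.18). The sodium-calcium exchanger SLC8A1 differed by -0.56 (SE 0.41, -0.90 without dog 1) with overlapping dogs.

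Sarcomere genes had 1 of 22 below and 0 above (4.55% and 0%, against 11% and 7.84% of all genes). Their median was -0.15, and -0.02 without Week-1 dog 1. The single gene was ACTA1, skeletal alpha-actin, with 9.78, 10.15 and 9.65 at Day-0 and 8.32, 8.50 and 8.72 at Week-1, a difference of -1.35 (SE 0.36, -1.25 without dog 1). The 3 dimmer probe sets of ACTA1 gave -0.09 to -0.15 with overlapping dogs, so the size rests on 1 probe set, and near-identical actin genes may share its signal. The beta myosin heavy chain MYH7 overlapped, with -0.15 (SE 0.23) and 0.00 without Week-1 dog 1. ANKRD1, a stretch-responsive protein of the sarcomere, had 10.24, 10.26 and 10.95 at Day-0 and 9.84, 9.58 and 10.26 at Week-1, with Week-1 dog 3 inside the Day-0 range and a difference of -0.59 (SE 0.29, -0.57 without dog 1).

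Of a panel of 24 heart failure genes 16 were tested, and 2 lay above (CCN2 and TIMP1) and 2 below (ACTA1 and RYR2) without overlap. These shares were 12.5% each, against 7.84% and 11% of all genes. TIMP1, an inhibitor of matrix proteases, had 7.48, 7.41 and 7.58 at Day-0 and 7.67, 7.61 and 8.48 at Week-1, a difference of 0.43 (SE 0.21, 0.55 without dog 1). The gap between the groups was small in Week-1 dogs 1 and 2.

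Genes of antigen presentation lay lower in part. B2M, the light chain of MHC class I, had log2 signals of 12.02, 12.24 and 12.18 at Day-0 and 11.63, 11.68 and 11.62 at Week-1, a difference of -0.50 (SE 0.19, -0.50 without dog 1). The 3 Week-1 dogs lay close together, and 1 further probe set gave -0.62 while the dimmest gave -0.07. The immunoproteasome subunit PSMB8 differed by -0.43 (-0.48) and the peptide transporter TAP1 by -0.30 (-0.33), whereas the interferon-induced ISG15 differed by 0.45 (0.50). Of 17 tested genes 3 lay below and 1 above (17.6% and 5.88%, against 11% and 7.84% of all genes).

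The Week-1 dogs were also set against the dogs paced for 3 days and for 2 weeks, which uses no Day-0 dog. Neither comparison gave a probe set past the limma threshold (0% in each): the smallest adjusted p was 0.529 against Day-3 and 0.692 against Week-2, with 689 and 826 probe sets at an unadjusted p under 0.05. These p-values do not show that the stages were alike. The comparisons of Day-3 and Week-2 with Day-0 share their control dogs with the one described here, so their values are only set side by side. SLC22A3 differed from Day-0 by 0.64 at Day-3, 0.87 at Week-1 and 0.88 at Week-2. CLGN differed by 0.68, 1.67 and 2.11. ITGB5 differed by 0.28, 0.86 and 0.64, and CD36 by -0.27, -0.83 and -0.44, each furthest from Day-0 at Week-1 among these 3 groups. LPL differed by 0.91, 1.53 and 0.44.

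**Figure D5:**
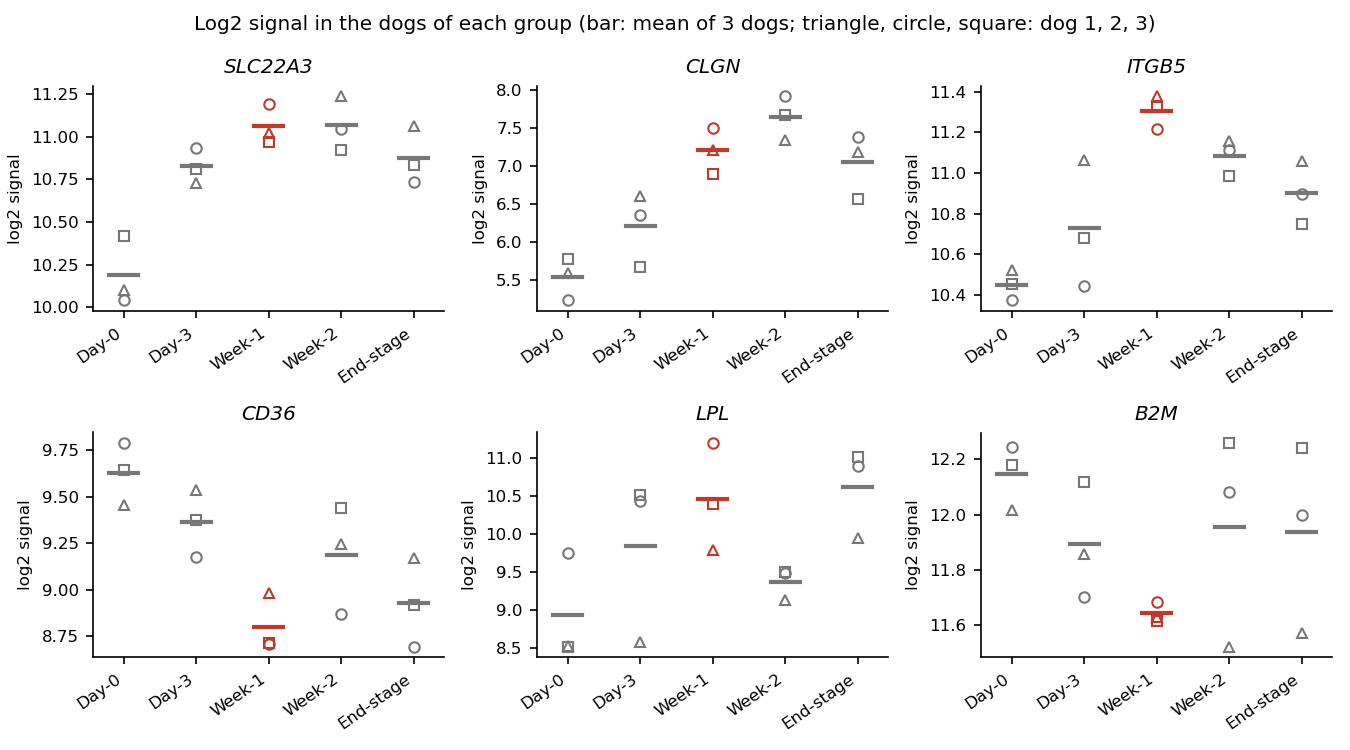
Log2 signal of 6 genes in the 3 dogs of each group, with the group mean as a bar, the dog number as the symbol shape and Week-1 in red. SLC22A3 lies higher than at Day-0 in every later group, ITGB5 and CD36 are furthest from Day-0 at Week-1, and the 3 Week-1 dogs of B2M lie closer together than those of the other groups.

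PDIA5 had the opposite sign at the neighbouring stages, with 0.27 at Day-3, -0.39 at Week-1 and 0.33 at Week-2. Its direct differences were -0.66 from Day-3 (limma adjusted p = 0.529) and -0.72 from Week-2 (limma adjusted p = 0.692), so the difference between stages did not pass the threshold.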

How the data were processed

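GCOS 1.4 and MAS5 made the signals, per the submitters' processing notes. The authors deposited 1 linear signal intensity per probe set and scaled each array: without the lowest and highest 2% of probe sets, the mean was 150.02 to 150.026 on every array. Arrays have no sequencing depth, and precision is limited by the number of dogs and by the spread between isolations of a dog. Of 23913 probe sets, 77 controls were left out. The array's platform annotation gave 1 symbol to 10549 probe sets, several to 138 and none to 13149. Symbols were updated through the RefSeq gene table of UU_Cfam_GSD_1.0, in which 10046 matched by gene ID.

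Each dog's value is the mean log2 signal of its 3 arrays. Probe sets in the lowest 40% by mean log2 signal (under a signal of 22.75) were not tested. In R 4.3.3, limma 3.58.1 fitted 1 mean per group to 15 dogs (lmFit, eBayes with an intensity trend; two-sided, Benjamini-Hochberg over 14302 probe sets). Tables and figures used Python 3.11.15. With variances averaged over dogs for each probe set, the median SD was 0.307 between isolations of a dog and, after subtracting the isolation part, 0.17 between dogs of a group. The median isolation SD of a single dog was 0.176 to 0.289, and the median SE of a difference was 0.189.

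The comparison, the 35 gene lists and the 17 lists of cell type markers were chosen with earlier results of these data known, so the lists are described and not tested. Genes were chosen for naming by a rule: probe sets past the threshold; up to 12 higher and 12 lower genes with the smallest p among those with 1 symbol and dogs that do not overlap; a panel of 24 heart failure genes; the 4 genes of lowest p in every list; up to 8 of each direction with the largest difference at an unadjusted p under 0.01, 1 symbol and dogs that do not overlap; and any past the threshold against Day-3 or Week-2, of which there were 0. Members named beyond this rule, namely ILK, TUBB2A, TUBA1C, GJA1, KCNH2, ATP1B3, HSP90B1, XBP1, RPN2, STT3A, PDIA4, PDIA5, CANX, HSPA5, CCT4, CCT8, HSPA9, MFAP4, FN1, OGDH, PDK2, SUCLG2, NDUFA9, NDUFAB1, CYC1, SDHD, HADHB, ETFDH, PPARGC1B, PPARA, MRPL1, HTRA2, GPX1, CAT, MSRB1, HSPE1, PDIA3 and TAP1 with the brighter probe set of LPL, were chosen after their values were seen. The alternatives covered dogs and isolations left out, averaging, normalization, filter, offset and variance model. The fit without isolation 2 of Week-1 dog 1 was added after seeing the data.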

Additional observations from a re-analysis of the deposited data

Results flagged for a closer look

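RPS16, a protein of the small cytosolic ribosomal subunit, lay below Day-0 in every Week-1 dog (log2 difference -0.45, -0.57 without dog 1) and above Day-0 in every Week-2 dog (0.263), on its brightest probe set. The direct difference between Week-1 and Week-2 did not pass the limma threshold (adjusted p = 0.76). RPS16 has 7 tested probe sets, of which 3 lay lower at Week-1 without overlap and 3 had estimates of 0.11 to 0.13, and near-identical gene copies may share its signal.

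PDIA5 lay below Day-0 in every Week-1 dog (-0.391, and -0.44 without dog 1) and above it in every Week-2 dog (0.33) and every End-stage dog (0.2). The direct difference of Week-1 from Week-2 did not pass the limma threshold (adjusted p = 0.692), and that from End-stage was not tested.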

How the results depend on the processing

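The count of 4 probe sets past the limma threshold moved by more than 1.5 times under nearly every alternative. It was 0 without any 1 of the 6 dogs, without Week-1 dog 1 and End-stage dog 1, without isolation 1, without isolation 2, with the median of the arrays of a dog, without an intensity trend and without isolation 2 of Week-1 dog 1 (1094 to 1280 probe sets at an unadjusted p under 0.05 in the last 6 of these). With Week-1 dog 1 represented by isolation 1, 2 or 3 alone it was 1, 17 and 0. It was 5 without isolation 3, 7 with the 6 dogs alone (1 of the 4 among them), 13 after quantile normalization (10 higher, 3 lower), 1 after median centring (higher), 12 with log2(signal + 16), 7 without a filter, 12 with the 60% filter and 32 with array weights. With all 45 arrays fitted and dogs as random blocks it was 377, and Week-1 differed from Day-3 at 7 and from Week-2 at 30 probe sets. With the dog number as a replicate block the count was 17, among them all 4. Same-numbered dogs of Day-0 and Week-1 correlated at 0.168, 0.106 and -0.000148 in their deviations from the group means, so the numbers were not taken to pair the dogs. The 2307 probe sets without overlap became 3354 to 4039 when 1 dog was left out and 3661 without Week-1 dog 1 and End-stage dog 1; a group of 2 dogs is by construction separated more often than a group of 3. Of 140 named probe sets, 2 reversed: HSPA5, with -0.151 to 0.281 when 1 dog was left out, and MYH7, with -0.333 to 0.00399 when 1 dog was left out, 0.00399 without Week-1 dog 1 and End-stage dog 1 and 0.0167 after quantile normalization. The causes were not tested.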

Other observations

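Several other gene groups held members whose 3 Week-1 dogs lay on one side of the 3 Day-0 dogs, none of them past the limma threshold. Values marked "without dog 1", and lone values in brackets after a difference, leave out Week-1 dog 1. CCL2, a chemokine that draws monocytes, had log2 signals of 6.26, 5.97 and 5.82 at Day-0 and 6.76, 6.72 and 6.87 at Week-1, a difference of 0.77 (SE 0.23, 0.78 without dog 1). It was the only 1 of 12 tested cytokine genes above, a share of 8.33% that is near the 7.84% of all genes. Of 5 tested clock genes, 1 lay above and 1 below (20% each), too few for a share to be read. NFIL3, a repressor, differed by 1.22 (SE 0.33, 1.05 without dog 1) and the nuclear receptor NR1D2 by -0.33 (SE 0.14, -0.30 without dog 1). Of 15 apoptosis genes, 2 lay above and 3 below (13.3% and 20%, against 7.84% and 11% of all genes). The survival factors MCL1 and BCL2L1 differed by 0.65 (0.60) and 0.31 (0.29), while the mitochondrial proteins AIFM1, CYCS and HTRA2 differed by -0.64 (-0.70), -0.33 (-0.28) and -0.20 (-0.22). The dimmer probe set of AIFM1 gave 0.25 and that of BCL2L1 0.09, both with overlapping dogs, so the sign for AIFM1 depended on the probe set. CDKN2C, an inhibitor of the cell cycle kinases, had 7.96, 8.12 and 8.15 at Day-0 and 8.59, 8.60 and 8.58 at Week-1, a difference of 0.51 (SE 0.16, 0.51 without dog 1).

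Glycolysis genes had 2 of 23 above and 1 below (8.70% and 4.35%, against 7.84% and 11% of all genes), so their members are only listed. ENO1 differed by 0.37 (SE 0.12, 0.37 without dog 1) and PGK1, a kinase of the same pathway, by -0.18 (SE 0.10, -0.16 without dog 1). The proteasome had 4 of 32 below and 0 above, and its share below of 12.5% was near the 11% of all genes. PSMA6 had 9.78, 9.85 and 9.92 at Day-0 and 9.39, 9.43 and 9.44 at Week-1, a difference of -0.43 (SE 0.13, -0.41 without dog 1). The dimmer probe sets of PSMA6 gave -0.20 and 0.06 with overlapping dogs. Oxidative stress defence had 2 of 27 genes above and 3 below (7.41% and 11.1%), near the shares over all genes (7.84% and 11%), so its members are only listed. The glutathione peroxidases GPX3 and GPX1 differed by 0.55 (0.52) and 0.21 (0.26), while glutathione reductase (GSR), catalase (CAT) and the methionine sulfoxide reductase MSRB1 differed by -0.34 (-0.33), -0.34 (-0.32) and -0.19 (-0.15). The dimmer probe sets of GPX3 gave 0.50, 0.47 and, on the dimmest, -0.70, all with overlapping dogs. The glutamate transporter SLC1A3 differed by 0.70 (SE 0.25, 0.74 without dog 1) and the nucleoside transporter SLC29A1 by -0.42 (SE 0.16, -0.36 without dog 1).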
